A study of Mus musculus with 24 samples.

Results

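Receptors for serotonin, adrenaline and noradrenaline, dopamine, acetylcholine and histamine were examined in the mouse hippocampus after overnight exposure to corticosterone. The members were all genes on the array whose symbol marks them as such a receptor or receptor subunit. The rule gave 54 symbols, 1 of which (Chrna1os, a noncoding RNA) had no probe, so that 53 genes with 72 probes remained among 56605 probes tested. They comprised 14 serotonin, 9 adrenergic, 5 dopamine, 5 muscarinic, 16 nicotinic and 4 histamine receptor genes. Each gene is given by its brightest probe, the one with the highest mean signal over all animals.

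RNA came from the hippocampi of 48 male Swiss-Webster mice aged 12 weeks. Control animals drank water with 0.45% hydroxypropyl-beta-cyclodextrin, and corticosterone-treated animals drank the same solution with corticosterone at 100 µg/ml, over the active (dark) phase. Both groups were killed during hour 1, 5 or 9 of the following resting (light) phase, and 8 animals per treatment and hour were measured. The mice were housed singly and not pooled, and brothers were spread over the groups, so animals of a group are separate animals but not all unrelated. Each of 24 arrays held 1 control animal (Cy3 dye) and 1 treated animal (Cy5 dye), with no exchange of dyes, so a dye effect at a probe cannot be told apart from the corticosterone effect within an hour. It cancels in the change of the effect between hours.

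Serotonin, noradrenaline, dopamine and histamine reach the hippocampus through axons of neurons that lie in the brainstem and hypothalamus, and acetylcholine comes mainly from the septum. Most of the receptors are coupled to G proteins. Those coupled to Gs raise cyclic AMP, those coupled to Gi lower it, and those coupled to Gq activate phospholipase C, whereas the serotonin Htr3 and the nicotinic Chrn genes encode subunits of ion channels. Because whole tissue was measured, fewer cells that express a receptor and less RNA per cell cannot be told apart.

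The corticosteroid response genes showed that the treated animals differed from controls. Of 10 such genes, 9 were higher at hour 1, 5 at hour 5, and 2 were higher and 5 lower at hour 9, against 17.5%, 18.1% and 14% of all probes called in either direction. Fkbp5, a cochaperone of the glucocorticoid receptor, went from a log2 difference of 0.60 ± 0.08 (standard error) through 0.31 ± 0.08 to -0.28 ± 0.08. All 12 principal neuron markers and all 12 interneuron markers were well above background in all 48 channels (1 channel is 1 animal). Of the striatum markers 9 of 10, and of the habenula and thalamus markers 9 of 10, were above it throughout too, so neighbouring tissue in the dissection was not shown to be absent. Per array, 60.8% to 67.2% of probes were well above background in the control channel and 64% to 73.5% in the treated channel, and no probe was saturated.

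Of the 53 receptor genes, 32 were well above background in all 48 channels, 17 in some and 4 in none. The 4 were Hrh2, the Gs-coupled histamine receptor, Htr3b, a partner subunit of Htr3a, and the nicotinic subunits Chrna3 and Chrnb3. In all channels were 4 of 5 muscarinic, 7 of 9 adrenergic, 3 of 4 histamine, 8 of 14 serotonin, 8 of 16 nicotinic and 2 of 5 dopamine receptor genes. Drd1 and Drd5, the Gs-coupled pair, were above background in every animal, whereas Drd2, Drd3 and Drd4, all Gi-coupled, were so in 9, 1 and 21 channels. Of these, the treated (Cy5) channel held all 9, the 1 and 17 of the 21, and no control animal was above background for Drd2 or Drd3. Of the 17 genes above background in some channels, 16 were so in more treated than control channels and 1 in more control channels, and treatment and dye cannot be told apart in this. Over all probes the share above background was also larger in the treated channel on every array (median over arrays 69.55%, against 63.7% in the control channel). Nothing particular to the receptors is therefore read from these counts. A mean signal intensity of 50 or more was reached by 33 genes, and values of the dimmer 20 carry little information on level. Signals of different probes are not compared as levels, because each probe binds differently.

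**Figure D1:**
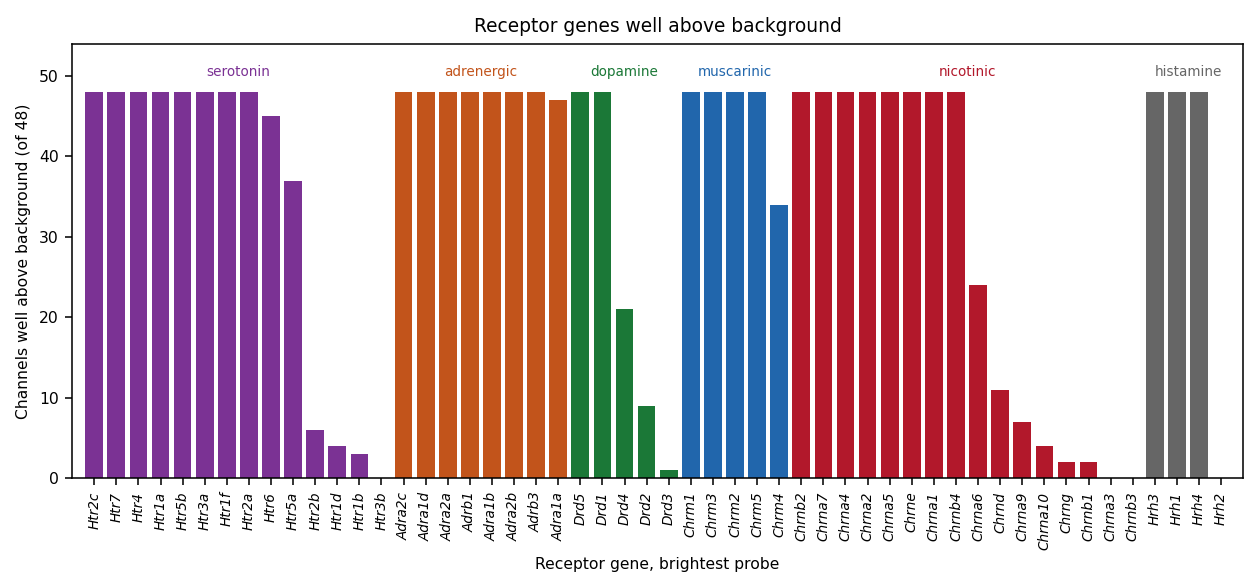
Number of channels (of 48, 1 per animal) in which the brightest probe of each receptor gene shown was well above background, by receptor family. 32 genes reach 48 channels and Htr3b, Chrna3, Chrnb3 and Hrh2 stand at 0.

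Differences between corticosterone-treated and control animals were small and scattered over the families. During the first hour 11 of 53 receptor genes differed at an adjusted p under 0.05 (20.8%), 7 higher and 4 lower, against 17.5% of all probes, 8.85% higher and 8.67% lower. During the fifth hour 9 differed (17%), 6 higher and 3 lower, against 18.1% of all probes, 8.62% higher and 9.47% lower. During the ninth hour 9 differed (17%), 5 higher and 4 lower, against 14% of all probes, 7.01% higher and 6.97% lower. At hours 1 and 5 the shares lay near those over all probes. At hour 9 the calls came mostly from dim probes, with 3 of the 33 genes with a mean signal of 50 or more (9.09%) and 6 of the 20 dimmer ones (30%), against 14% of all probes of either kind. The median log2 difference over the 53 genes was 0.07, 0.01 and 0.00 at the 3 hours, and over all probes it was 0.00 each time. In total 20 genes differed at 1 hour or more (37.7%, against 29.8% of all probes), and 33 did so at none. The 20 genes made 29 calls, 19 of them by genes with a mean signal of 50 or more and 10 by dimmer genes. For each receptor gene and hour the 8 treated and 8 control animals overlapped (the groups lay apart in 0 of 159 pairs of gene and hour). Over all probes they lay apart for 1.59%, 1.04% and 1.64% at hours 1, 5 and 9, so nothing particular to the receptors is read from that count.

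**Figure D2:**
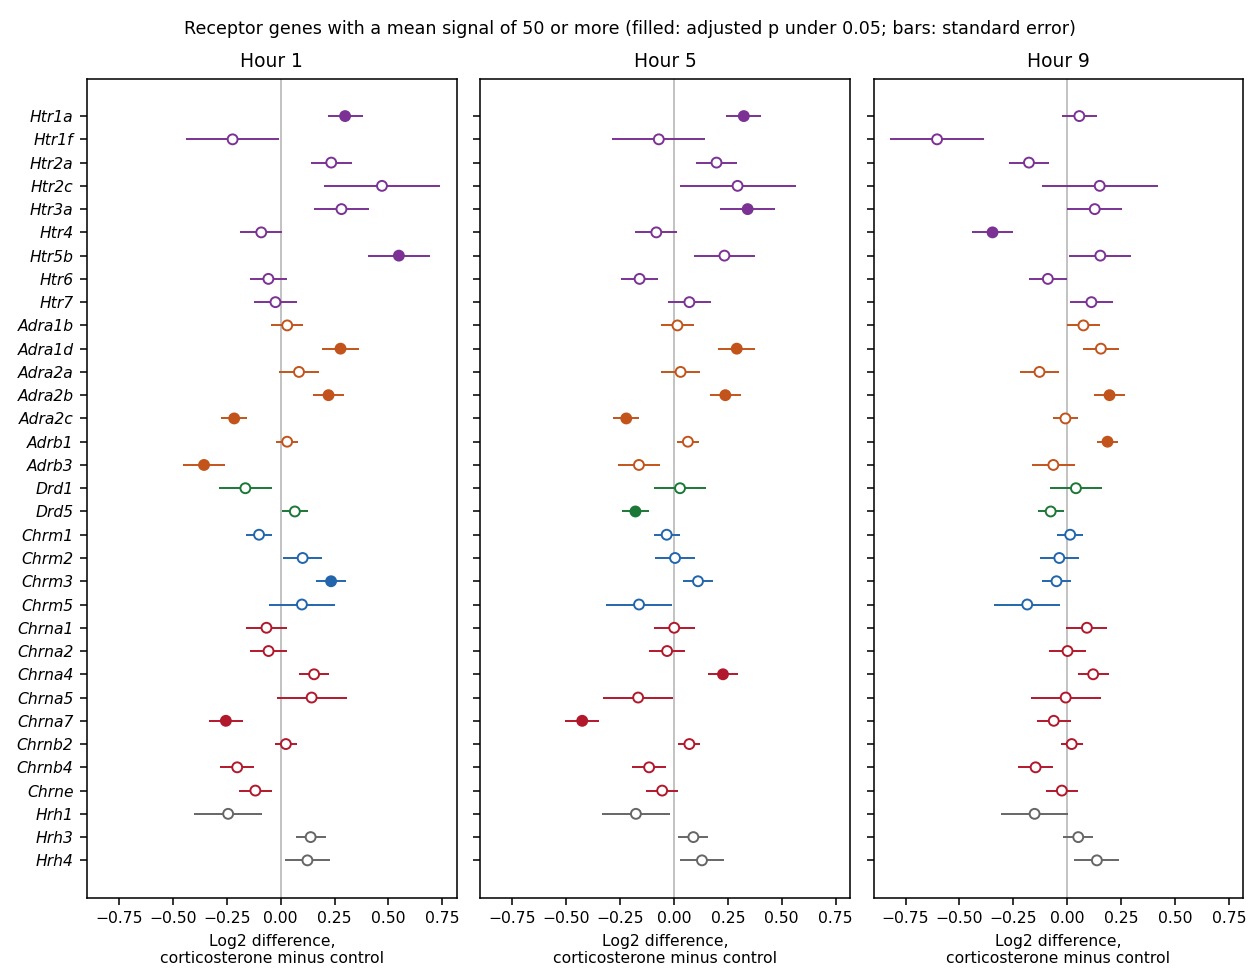
Log2 difference of signal intensity, corticosterone-treated minus control, for the 33 receptor genes with a mean signal of 50 or more at hours 1, 5 and 9. Points are the fitted means over 8 arrays, bars their standard errors, and filled points passed an adjusted p of 0.05. Htr1a, Adra1d, Adra2b, Adra2c and Chrna7 are filled at both hours 1 and 5, and Adra2b at all 3.

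The 5 genes with a mean signal of 50 or more that differed during both the first and the fifth hour were Htr1a, Adra1d and Adra2b, which were higher, and Adra2c and Chrna7, which were lower. For 4 of them RefSeq (GRCm38.p6) sequence before the transcription start was at hand. The 250 bases before the start are shown here 5′ to 3′ on the gene's strand because these members passed at the same 2 hours, with every CG pair in capitals. CG pairs are sites at which mammalian DNA is methylated. The windows lie at chr13:105443443-105443692 (Htr1a, plus strand), chr2:127362929-127363178 (Adra2b, plus), chr5:35278316-35278565 (Adra2c, plus) and chr7:63212527-63212776 (Chrna7, minus).
Htr1a: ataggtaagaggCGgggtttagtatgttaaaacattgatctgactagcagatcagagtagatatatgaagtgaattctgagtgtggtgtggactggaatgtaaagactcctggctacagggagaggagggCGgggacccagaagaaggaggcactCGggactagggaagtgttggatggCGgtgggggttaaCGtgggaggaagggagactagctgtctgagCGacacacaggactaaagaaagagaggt
Adra2b: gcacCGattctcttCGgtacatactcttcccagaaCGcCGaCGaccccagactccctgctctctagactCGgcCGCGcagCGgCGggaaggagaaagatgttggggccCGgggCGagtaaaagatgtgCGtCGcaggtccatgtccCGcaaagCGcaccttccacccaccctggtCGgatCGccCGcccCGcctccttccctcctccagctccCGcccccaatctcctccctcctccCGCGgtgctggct
Adra2c: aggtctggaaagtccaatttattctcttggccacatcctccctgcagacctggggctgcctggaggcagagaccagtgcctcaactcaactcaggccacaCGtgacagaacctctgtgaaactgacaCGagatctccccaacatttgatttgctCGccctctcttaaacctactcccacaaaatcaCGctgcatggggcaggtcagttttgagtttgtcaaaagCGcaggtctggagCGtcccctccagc
Chrna7: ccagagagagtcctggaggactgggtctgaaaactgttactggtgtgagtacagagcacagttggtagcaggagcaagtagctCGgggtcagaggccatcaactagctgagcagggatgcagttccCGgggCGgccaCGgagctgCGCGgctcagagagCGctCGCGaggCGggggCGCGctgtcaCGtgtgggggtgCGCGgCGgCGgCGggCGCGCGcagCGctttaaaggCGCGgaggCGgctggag
The windows of Htr1a and Adra2c each held 6 CG pairs, and those of Adra2b and Chrna7 held 23 and 25. Genes with few and with many CG pairs were thus found among both the higher and the lower members. The median was 9.5 CG pairs over the 40 receptor genes with a window and 6 over all 32851 windows, of which 92.1% held at least 1. The letters of the glucocorticoid receptor half-site, AGAACA or its other strand TGTTCT, occurred in none of the 4 windows. They occurred in 5 of the 40 receptor windows (12.5%) and in 16.1% of all windows of this length, and the paired form (both half-sites, 3 bases apart) occurred in 0 receptor windows and in 3 windows of all. A motif match is a description of letters, and its absence here concerns these windows only.

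Among the serotonin receptors Htr1a, the Gi-coupled inhibitory receptor of hippocampal pyramidal cells, was higher in treated animals early and not late. During the first hour the control signals ran from 329 over a median of 385 to 477, and the treated ones from 388 over 487 to 508. The groups overlapped, but on 8 of 8 arrays the treated animal was the higher one, and the log2 difference was 0.30 ± 0.08 (adjusted p = 0.00558). During the fifth hour the medians were 349 and 470 and the difference was 0.32 ± 0.08 (adjusted p = 0.00248, 7 of 8 arrays higher). During the ninth hour the medians came to 349 and 375, with a difference of 0.06 ± 0.08 (adjusted p = 0.704). Within single slides the first-hour difference ran from 0.24 to 0.36 and the fifth-hour one from 0.16 to 0.52. The test of the change itself, ninth minus first hour, gave -0.24 ± 0.11 and did not pass (adjusted p = 0.597).

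Htr5b, a serotonin receptor that is functional in rodents and a pseudogene in humans, had the highest fitted difference of the brighter members during the first hour, 0.55 ± 0.14 (adjusted p = 0.00268, 7 of 8 arrays higher). Control animals had signals between 215 and 354 with a median of 269, and treated animals between 258 and 488 with a median of 429. Most treated animals thus lay above the whole control range, and 2 lay within it. The difference was 0.23 ± 0.14 at hour 5 and 0.15 ± 0.14 at hour 9, and neither passed. Nor did its change between hours 1 and 9, -0.39 ± 0.20 (adjusted p = 0.645). Within slides the first-hour difference ran from 0.44 to 0.82.

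Htr3a, the subunit of the serotonin-gated ion channel that interneurons carry, passed during the fifth hour, at 0.34 ± 0.13 (adjusted p = 0.044, 6 of 8 arrays higher). Its control signals ran from 151 over 174 to 231 and its treated ones from 135 over 210 to 374. Treated animals were more dispersed than controls, and the call rested on slides unequally, since within slides the difference ran from -0.05 to 0.74. Without the fifth-hour array of most outlier spots, a setting chosen after seeing the data, it was 0.30 and did not pass (adjusted p = 0.128). At the same hour 7 of 12 interneuron markers were higher and 1 lower (median 0.19), against 8.62% and 9.47% of all probes. Their summed signal lay between 176600 and 207900 in control and between 197100 and 206900 in treated animals, and none of them was at 0. Their part in the Htr3a difference was not tested. In control animals Htr3a was also higher during the ninth than the first hour, by 0.46 ± 0.15, which did not pass (adjusted p = 0.181).

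Htr4, a Gs-coupled receptor of principal neurons, passed during the ninth hour only among the 3 hours, and was lower by log2 -0.35 ± 0.10 (adjusted p = 0.00842). Control signals then ran from 438 over 563 to 689 and treated ones from 361 over 443 to 517, and the treated animal was the lower one on 8 of 8 arrays. The difference was -0.09 ± 0.10 at hour 1 and -0.08 ± 0.10 at hour 5. Within slides the ninth-hour value ran from -0.47 to -0.20. Its second, dimmer probe had 0.07 ± 0.07 at that hour (adjusted p = 0.568), so the probes of Htr4 disagreed. Htr1f, another Gi-coupled member, was lower at that hour by log2 -0.60 ± 0.22, on 7 of 8 arrays, and missed the threshold (adjusted p = 0.0566). Its control signals ran from 132 over 176 to 226 and its treated ones from 54.5 over 138 to 213.

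Htr2a, the Gq-coupled receptor, had a difference of 0.23 ± 0.09 during the first and -0.18 ± 0.09 during the ninth hour, and neither passed (adjusted p = 0.0678 and 0.215). Htr7, which is Gs-coupled, had differences between -0.02 and 0.11 on its brightest probe. Htr6 and Htr5a did not pass, and Htr1b, Htr1d and Htr2b were above background in only 3, 4 and 6 channels.

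**Figure D3:**
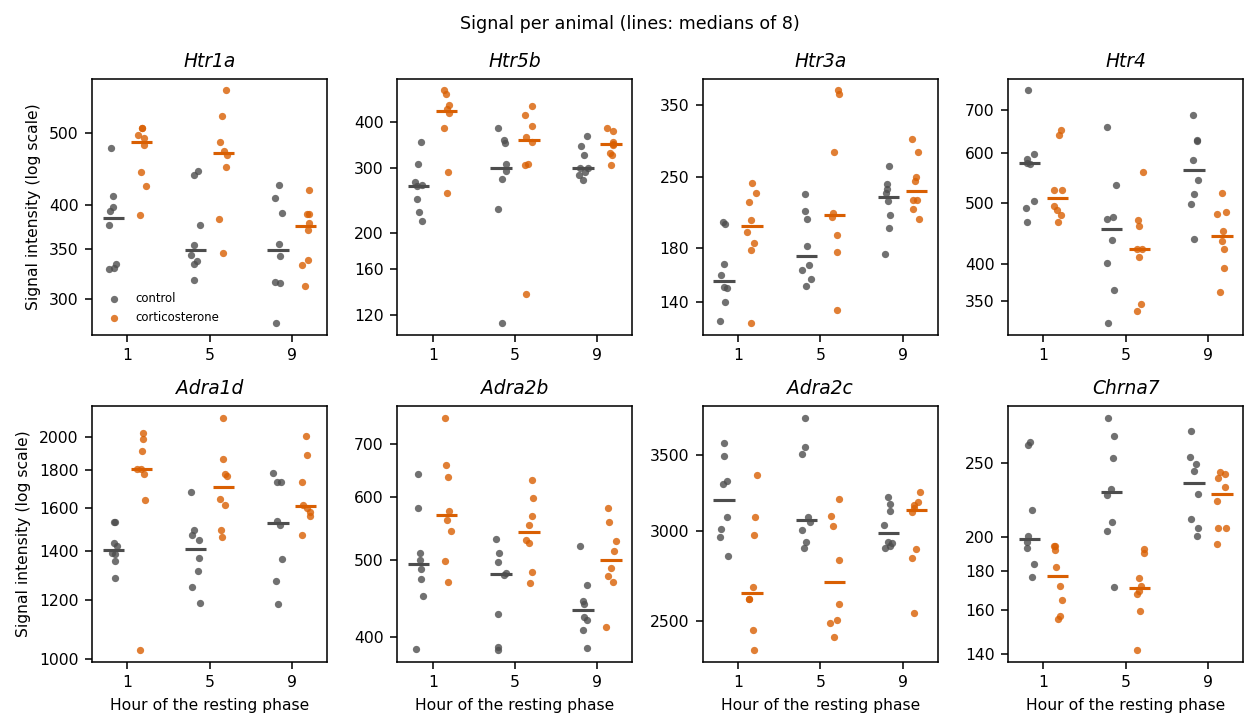
Signal intensity (log scale) of each animal for 8 receptor genes that passed the test at 1 hour or more, by hour of the resting phase. Grey points are control and orange points corticosterone-treated animals (8 each), and lines are medians. For Htr1a the medians stand at 385 and 487 during the first hour and at 349 and 375 during the ninth.

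Adrenergic receptors gave calls in both directions. Adra2b, a Gi-coupled alpha-2 receptor, was higher in treated animals on 8 of 8 arrays at each of the 3 hours, and it was the only gene among the brighter members to pass at all 3. Its log2 difference was 0.22 ± 0.07, 0.24 ± 0.07 and 0.20 ± 0.07 (adjusted p = 0.0167, 0.0106 and 0.0454). The ninth-hour call was lost (0.20, adjusted p = 0.0532) without the array of most outlier spots. Median signals in control and treated animals were 493 and 568 at hour 1, 480 and 541 at hour 5, and 432 and 500.3 at hour 9, with overlapping ranges each time. Within slides every one of its differences lay between 0.18 and 0.29. A difference that is the same at each hour is also what a dye effect at the probe would give, and the 2 cannot be told apart here.

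Adra2c, another Gi-coupled alpha-2 receptor, was lower in treated animals during the first and the fifth hours, with a value near 0 during the ninth. Control signals of the first hour ran from 2856 over 3198 to 3587 and treated ones from 2357 over 2649 to 3364. The treated animal was the lower one on 8 of 8 arrays, with a log2 difference of -0.22 ± 0.06 (adjusted p = 0.0054). The fifth hour gave -0.22 ± 0.06 (adjusted p = 0.00416, 6 of 8 arrays lower) and the ninth -0.01 ± 0.06 (adjusted p = 0.947). Between hours 1 and 9 the difference changed by 0.21 ± 0.08, with an adjusted p of 0.413. Within slides the first-hour value ran from -0.32 to -0.13 and the fifth-hour value from -0.40 to -0.04.

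Adra1d, a Gq-coupled alpha-1 receptor, was higher by 0.28 ± 0.09 during the first and 0.29 ± 0.09 during the fifth hour (adjusted p = 0.0134 and 0.00955, 7 of 8 arrays each). Median signals were 1405 in control and 1807 in treated animals at hour 1, when 1 treated animal at 1027 lay below every control animal. Its second probe passed at the same hours, with 0.43 ± 0.10 and 0.28 ± 0.10, and during the ninth hour both probes had positive values that did not pass (0.16 ± 0.09 and 0.18 ± 0.10). The 2 probes of Adra1d thus moved alike. Adra2a, a Gi-coupled alpha-2 receptor, had differences of 0.08, 0.03 and -0.13, each with a standard error of 0.09, and none passed. Adra1b, the other bright Gq-coupled alpha-1 receptor, had differences of 0.03, 0.02 and 0.08, and none passed.

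Beta receptors raise cyclic AMP through Gs. Adrb1 passed during the ninth hour, when treated signals ran from 952 over 1061 to 1118 and control ones from 833 over 932 to 1067. The treated animal was higher on 8 of 8 arrays, by 0.19 ± 0.05 (adjusted p = 0.00546), after 0.03 ± 0.05 and 0.06 ± 0.05 at the earlier hours. Adrb3 was lower during the first hour on 8 of 8 arrays, by log2 -0.36 ± 0.10 (adjusted p = 0.00887), with median signals of 82.1 in control and 61.2 in treated animals. Of 10 endothelial and mural markers, 1 was higher and 4 lower during the first hour (median -0.19), against 8.85% and 8.67% of all probes. Their summed signal ran from 15640 to 18120 in control and from 13170 to 16560 in treated animals. Their part in the Adrb3 difference was not tested. The second Adrb3 probe, with a mean signal of 35.8, was above background in 1 of 8 control and 7 of 8 treated animals at that hour, so no direction is read from it.

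The dopamine receptors gave 1 call. Drd5, a Gs-coupled receptor, was lower during the fifth hour by log2 -0.18 ± 0.06 (adjusted p = 0.024, 7 of 8 arrays lower), with control signals from 1456 over 1741 to 2131 and treated ones from 1327 over 1599 to 1711. Its second probe had -0.12 ± 0.06 (adjusted p = 0.086), the same direction. Within slides the value ran from -0.33 to -0.03, and without the array of most outlier spots it was -0.16 and did not pass (adjusted p = 0.0743). Drd5 also had lower signals in control animals of the ninth than of the fifth hour, by log2 -0.27 ± 0.07, which did not pass (adjusted p = 0.22). Drd1 had differences of -0.16, 0.03 and 0.04 with a standard error of 0.12, and none passed.

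Acetylcholine acts on muscarinic receptors through G proteins. Chrm3, which is Gq-coupled, was higher during the first hour on 8 of 8 arrays, by 0.23 ± 0.07 (adjusted p = 0.0101), when control signals ran from 526 over 616 to 745 and treated ones from 647 over 736 to 854. The difference was 0.11 ± 0.07 at hour 5 and -0.05 ± 0.07 at hour 9, and between hours 1 and 9 it changed by -0.28 ± 0.10 (adjusted p = 0.221). Its second probe had 0.18 ± 0.08 at the first hour and did not pass (adjusted p = 0.11). Chrm1, the main Gq-coupled muscarinic receptor of pyramidal cells, did not pass on its brightest probe (-0.10 ± 0.06, -0.03 ± 0.06 and 0.01 ± 0.06). Chrm4, with a mean signal under 50, passed during the ninth hour, at 0.29 ± 0.09 (adjusted p = 0.0402, 6 of 8 arrays higher), but then only 4 of 8 control animals were above background, against 8 of 8 treated ones. It passed in 6 of the 10 other settings that kept every slide, with adjusted p-values from 0.0238 to 0.48, and in none with a slide left out. Chrm2 had differences of 0.10, 0.01 and -0.04, each with a standard error of 0.09, and neither it nor Chrm5 passed.

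Nicotinic subunits assemble into ion channels of 5 subunits. Chrna7, which forms such channels on its own and is abundant on hippocampal interneurons, was lower in treated animals during the first and the fifth hours. During the fifth hour control signals ran from 172 over 229 to 287 and treated ones from 142 over 171 to 193. The highest treated animal lay below the control median, and the log2 difference was -0.43 ± 0.08 (adjusted p = 7.88e-05, 7 of 8 arrays lower). The first hour gave -0.25 ± 0.08 (adjusted p = 0.017, 6 of 8 arrays lower) and the ninth -0.06 ± 0.08 (adjusted p = 0.622). Between hours 5 and 9 the difference changed by 0.36 ± 0.11 (adjusted p = 0.346). Within slides the fifth-hour difference ran from -0.54 to -0.32, and the first-hour one from -0.37 to -0.02. Without 1 first-hour array, that of the animal highest for Chrm3, the first-hour value was -0.19 and did not pass (adjusted p = 0.0822). The interneuron markers went the other way during the fifth hour, with 7 of 12 higher and 1 lower (median 0.19), against 8.62% and 9.47% of all probes. Their part in the Chrna7 difference was not tested.

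Chrna4, which pairs with Chrnb2 in the common high-affinity receptor, was higher during the fifth hour, by 0.23 ± 0.07 (adjusted p = 0.0172, 7 of 8 arrays), with control signals from 157 over 172 to 196 and treated ones from 157 over 205 to 236. Chrnb2 itself had differences of 0.02, 0.07 and 0.02, each with a standard error of 0.05, and did not pass. In control animals Chrna4 was higher during the ninth than the first hour by 0.26 ± 0.08, which did not pass (adjusted p = 0.165). Chrnb4 had negative values at all 3 hours (-0.20, -0.12 and -0.15, each with a standard error of 0.08) and did not pass.

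The other nicotinic calls concerned dim probes, among them those of subunits known from muscle (Chrnb1) and the inner ear (Chrna9). Chrnb1 passed at all 3 hours on 8 of 8 arrays each, but it was above background in only 2 of 48 channels. These were 1 of 8 treated animals at each of the fifth and the ninth hours and no control animal, so no fold is given. Chrna9, above background in 7 channels, passed during the ninth hour, when 1 of 8 control animals and no treated animal was above it, and no fold is given either. Chrna3, Chrnb3 and Htr3b also passed (Chrna3 at hours 1 and 9, the others at hour 9) although they were not well above background in any channel, so they have none.

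The histamine receptors gave no call on their brightest probes with limma's separate channel test or with limma on the log ratios, and Hrh3 during the first hour was the 1 case with an unadjusted p under 0.05. Hrh3, a Gi-coupled receptor that restrains transmitter release, then had control signals from 4545 over 5411 to 5965 and treated ones from 5355 over 6012 to 7122, with a difference of 0.14 ± 0.07 (adjusted p = 0.14). Hrh1, which is Gq-coupled, had negative values at all 3 hours (-0.24, -0.18 and -0.15, with a standard error of 0.16 each). Hrh4 had positive ones (0.12, 0.13 and 0.14, with a standard error of 0.10 each). None of these passed the test.

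Grouped by signalling, which was done after the values were known, the brighter members gave first-hour calls of 2 higher and 1 lower among 8 Gi-coupled genes, 2 higher among 8 Gq-coupled genes, 1 lower among 7 Gs-coupled genes and 1 lower among 9 channel subunits. Htr5b, also higher, was not placed in a group. In total 8 of the 33 brighter genes were called at that hour (24.2%), against 20.1% of all probes with a mean signal of 50 or more. At hour 5 the calls were 2 higher and 1 lower among the Gi-coupled genes, 1 higher among the Gq-coupled, 1 lower among the Gs-coupled and 2 higher and 1 lower among the channel subunits, again 24.2% against 20.1%. At hour 9 there was 1 higher Gi-coupled gene and 1 higher and 1 lower Gs-coupled gene, or 9.09% against 14% of such probes. The median log2 difference at hours 1, 5 and 9 was 0.11, 0.06 and 0.02 in the Gi-coupled group, 0.17, 0.06 and -0.02 in the Gq-coupled group, -0.06, -0.08 and -0.06 in the Gs-coupled group and -0.06, -0.03 and 0.00 among the channel subunits. These are counts of few genes and were not tested against each other.

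Whether the effect of corticosterone itself changed between hours was tested directly, and no receptor gene passed. The background was 0.827% of all probes for the ninth minus the first hour, 0.0389% for the fifth minus the first and 0.083% for the ninth minus the fifth. At an unadjusted p under 0.05 these comparisons held 6, 1 and 5 of the 53 genes and 7.16%, 4.47% and 5.18% of all probes. Limma on the log ratios called 0, 0 and 0 genes and 0.829%, 0.0477% and 0.0972% of probes. Thus a gene such as Htr1a that passed early and not late was not shown to change between hours. In control animals no receptor gene passed between hours either. There the background was 0.537% of probes for the ninth minus the first hour, 0.0053% for the fifth minus the first and 0.0336% for the ninth minus the fifth, and 5, 1 and 4 genes had an unadjusted p under 0.05, as did 10.2%, 7.2% and 6.34% of probes. With limma on the control channel alone 1 gene, Htr3a, passed in the ninth minus the first hour and 0 in the other comparisons, against 0.475%, 0.00353% and 0.0177% of probes.

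Probes of 1 gene did not always give the same call. Of the 53 genes 16 had further probes, 19 in all. For Htr7 the brightest probe did not pass, the second (mean signal 100.0) was lower by log2 -0.25 ± 0.09 and -0.27 ± 0.09 during the first and the fifth hours (adjusted p = 0.0351 and 0.0269), and the third passed during the fifth, when it was above background in 0 control and 1 of 8 treated animals, so no difference is given for it. For Chrm1 the third probe passed during the ninth hour, at -0.19 ± 0.06 (adjusted p = 0.032). A second probe of Adra1a passed during the first and the ninth hours while above background in 0 channels, and second probes of Hrh1 and Chrng passed during the fifth, when they were above it in none. The files gave no probe sequence, so the transcript part that each probe reads was not analysed here.

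**Figure D4:**
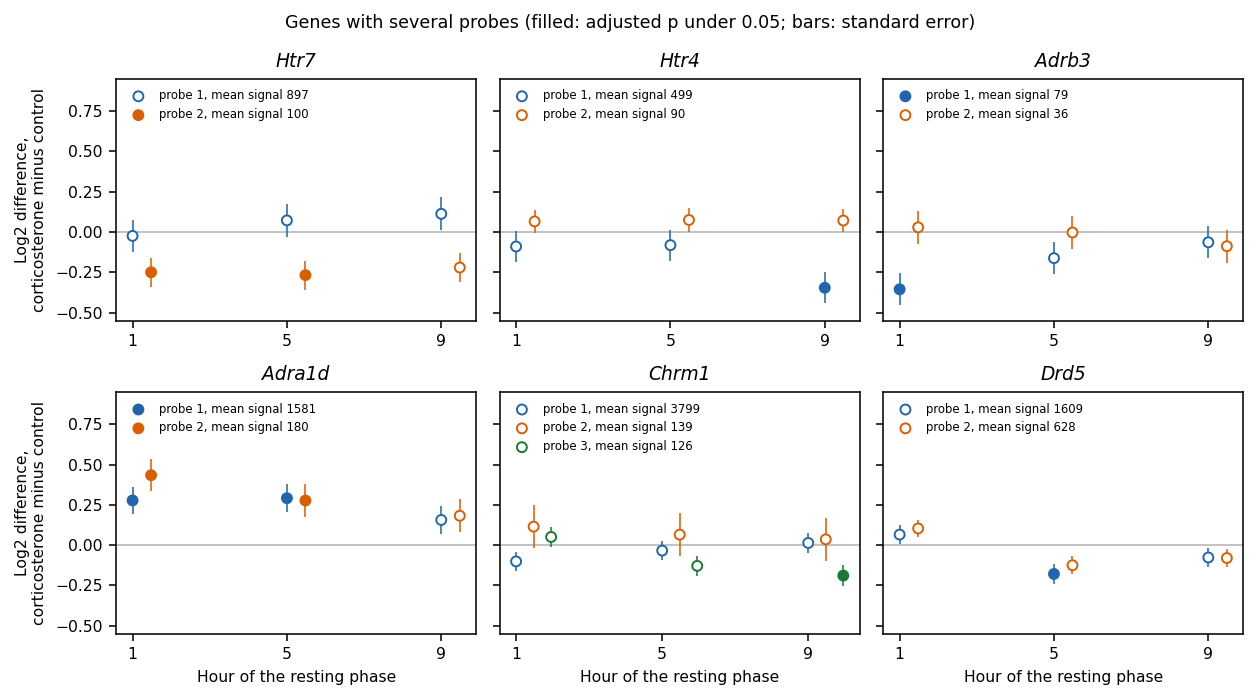
Log2 difference of signal intensity, corticosterone-treated minus control, for 6 receptor genes with several probes, by hour of the resting phase. Points are fitted means over 8 arrays, bars standard errors, and filled points passed an adjusted p of 0.05. Both probes of Adra1d lie above 0 at each hour, whereas those of Htr7 lie on both sides of it at hours 5 and 9. Probes with no channel above background in a group are left out, and the dimmer Adrb3 probe was above it in only 1, 2 and 4 of 8 control animals at hours 1, 5 and 9.

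The spread between animals differed among receptors. Over the 32 genes above background in all channels, Htr2c, the Gq-coupled receptor that is also abundant in the choroid plexus, had the highest standard deviation of log2 signal in control animals, 0.82, against 0.25 in treated ones. Its control signals ran from 307 over 1797 to 2924 and its treated ones from 1375 over 1957 to 2447. 3 control animals stood apart at 307, 451 and 459, 1 of the fifth and 2 of the first hour and each on another slide, and the next control animal was at 1190. The treated animals on the same arrays had 1874, 2386 and 2388. Through these animals the fitted first-hour difference of Htr2c was 0.47 ± 0.27 although the treated animal was the higher one on only 3 of 8 arrays and the medians were 1723 and 1689, and it did not pass (adjusted p = 0.22). Ttr, the choroid plexus transthyretin gene, ranked 10, 18 and 15 from below among the 24 control animals in these 3, with signals of 215, 498 and 359 in a range from 81.5 to 1053. The mean log2 deviation over the 7 choroid plexus markers above background in all channels, which weighs each gene alike, ranked 11, 20 and 14 of 24 in the same animals. The part of choroid plexus tissue in the Htr2c values was not tested.

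**Figure D5:**
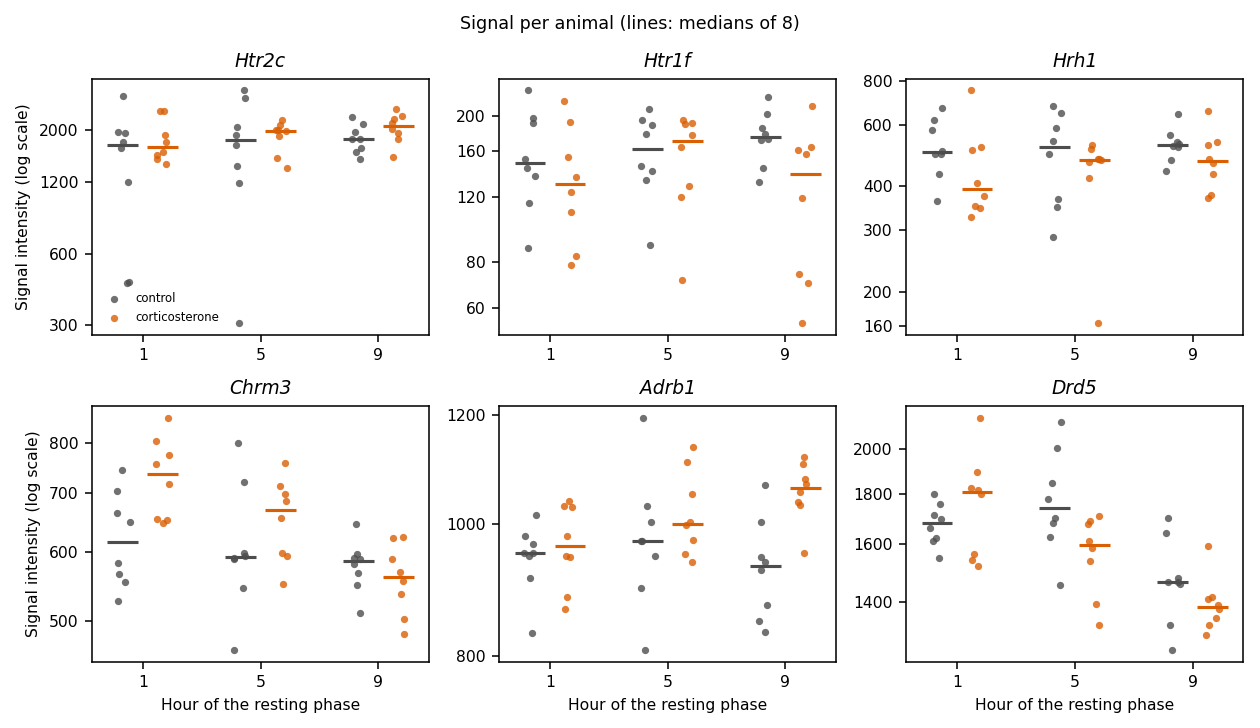
Signal intensity (log scale) of each animal for 6 receptor genes, by hour of the resting phase, with control animals in grey, corticosterone-treated animals in orange (8 each) and medians as lines. For Htr2c, 3 control animals lie at 307, 451 and 459, below all others.

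Receptor levels were also set beside the level of 9 cell type and region marker lists (the mean log2 deviation of the list's genes above background in all channels), as 288 relations of 32 genes in 24 control and, separately, in 24 treated animals of all 3 hours. The permutations shuffled animals over all hours and slides, so a shift between hours or slides that a gene and a list share enters r and its p. In treated animals 21 relations had a permutation p for r that passed after adjustment, in controls 0 did. By the rank correlation rho, Adra1b with the interneuron markers did pass in controls (rho = 0.74, adjusted permutation p = 0.0259). Its r there was 0.64 (adjusted p = 0.0931), and in treated animals rho was 0.40 (adjusted p = 0.3). The 5 relations described below, chosen after their values were seen, passed for r in treated animals. They had the same sign and a small unadjusted p in controls. Drd1 went with the striatum markers in treated animals (r = 0.79, adjusted permutation p = 0.00096, rho = 0.74, adjusted p = 0.00792), with r = 0.74 without the 2 animals farthest from the median and r = 0.59, 0.87 and 0.89 within slides 1, 2 and 3. Within hours 1, 5 and 9 its r was 0.77, 0.82 and 0.80. In controls the same relation had r = 0.53 (permutation p = 0.00727, adjusted p = 0.284), rho = 0.46 and, without the 2 animals, r = 0.31. Within the slides it had r = 0.78, 0.27 and 0.32, and within the hours 0.67, 0.0037 and 0.85.

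Htr5b went with the principal neuron markers in treated animals (r = 0.76, adjusted permutation p = 0.00096, rho = 0.74, adjusted p = 0.00432), with r = 0.58 without the 2 farthest animals and r = 0.59, 0.94 and 0.87 within slides. Within hours 1, 5 and 9 r was 0.89, 0.88 and 0.36, with 8 animals each. The fifth-hour value rested on the array of most outlier spots, without which r was 0.43 at that hour and 0.68 over all hours. In controls r was 0.70 (permutation p = 0.00097, adjusted p = 0.0931), but rho was 0.34 and r fell to 0.29 without those 2, so there the relation rested on them. Within hours 1, 5 and 9 the control values were -0.26, 0.87 and 0.67, with no positive relation at hour 1, and without the control animal of that array r was 0.52 at hour 5 and 0.41 over all hours. During the first hour, when Htr5b was called, 2 of the 12 principal neuron markers were higher and 0 lower (17.5% of all probes were called), and their summed signal ran from 167300 to 185900 in control and from 173100 to 191500 in treated animals, with none at 0. Their part in the Htr5b difference was not tested.

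Adrb1 went against the principal neuron markers in treated animals (r = -0.66, adjusted permutation p = 0.013, rho = -0.64, adjusted p = 0.0339), with r = -0.64 without the 2 farthest animals and r = -0.94, -0.16 and -0.73 within slides. Within hours 1, 5 and 9 its r was -0.50, -0.68 and -0.81. Without the array of most outlier spots it was -0.35 at hour 5 and -0.60 over all hours. Without the first-hour array of the animal highest for Chrm3 it was -0.28 at hour 1 and -0.70 over all hours. In controls r was -0.53 (adjusted permutation p = 0.284), rho was -0.36 and r was -0.22 without 2 animals, with 0.17, -0.59 and -0.78 within slides and 0.012, -0.87 and -0.012 within hours, so the control relation was not found in every slide or hour, and over all hours r was -0.26 without the array of most outlier spots. During the ninth hour, when Adrb1 was called, 1 of the 12 principal neuron markers was higher and 0 lower (14% of all probes were called), and their summed signal ran from 161000 to 195300 in control and from 175400 to 192000 in treated animals. Their part in the Adrb1 difference was not tested.

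Astrocyte markers, which went with Chrm3 in treated animals (r = 0.75, adjusted permutation p = 0.00288, rho = 0.72, adjusted p = 0.00792, r = 0.65 without the 2 farthest animals, and 0.59, 0.81 and 0.84 within slides) and less clearly in controls (r = 0.58, adjusted p = 0.142, and r = 0.31 without the 2 farthest animals), had a summed signal of 110000 to 135300 in control and 126000 to 153000 in treated animals at hour 1. Of the 10, 3 were higher and 2 lower at that hour, against 8.85% and 8.67% of all probes, and none was at 0. Their median log2 difference was 0.04, with values from -0.76 to 0.73, so the list did not move as 1. It holds Aqp4 and Gjb6, which the study reports as changed by corticosterone. Within hours 1, 5 and 9 the relation had r = 0.69, 0.69 and -0.10 in treated and 0.54, 0.88 and -0.19 in control animals, so it did not hold at hour 9. Without 1 first-hour array, that of the treated animal highest for Chrm3, the treated r was 0.43 at hour 1 and 0.68 over all hours.

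Chrm3 also went with the habenula and thalamus markers in treated animals (r = 0.57, adjusted permutation p = 0.0263), but rho was 0.51 (adjusted p = 0.12) and r was 0.30 without the 2 farthest animals, so the relation rested on them. Within slides r was 0.33, 0.023 and 0.82, and within hours 1, 5 and 9 it was 0.63, -0.017 and 0.41, with 0.21 at hour 1 without the same first-hour array. In controls r was 0.61 (adjusted permutation p = 0.125) and 0.29 without 2, with 0.57, 0.45 and 0.61 within slides and 0.67, 0.91 and -0.11 within hours. The relation was thus not found at every hour in either group. Of these 10 markers 3 were higher and 0 lower at hour 1, against 8.85% and 8.67% of all probes, none was at 0, and their summed signal ran from 13460 to 14310 in control and from 13420 to 19520 in treated animals. The treated animal highest for Chrm3 at that hour, at 854, also stood apart in these markers, with a mean log2 deviation of 0.44 against 0.08 in the next. Without its array, a setting chosen after seeing the data, the first-hour difference of Chrm3 was 0.24 (adjusted p = 0.0108). The part of the astrocyte, habenula and thalamus markers in that difference was not tested.

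The genes that make, carry and break down these transmitters gave calls in both directions. Of 27 such genes 3 were higher and 3 lower at hour 1, 3 and 4 at hour 5, and 2 and 1 at hour 9. These counts are to be read against 17.5%, 18.1% and 14% of all probes. Ddc, the decarboxylase that forms dopamine and serotonin, had control signals from 561 over 722 to 886 and treated ones from 935 over 1203 to 2485 during the first hour, so that the groups did not overlap. Its log2 difference was 0.84 ± 0.11, then 0.55 ± 0.11 and 0.05 ± 0.11 at the later hours (adjusted p = 2.44e-07, 0.000396 and 0.828). Qdpr, which regenerates the cofactor of the monoamine hydroxylases, was lower on 8 of 8 arrays at each hour (-0.25 ± 0.06, -0.42 ± 0.06 and -0.20 ± 0.06). The plasma membrane transporters Slc6a2 and Slc6a4, known from the cell bodies of noradrenergic and serotonergic neurons that lie outside the hippocampus, were above background in no channel. Other genes known from such monoamine neurons were above it, Th, Dbh and Slc18a2 in all 48 channels and Tph2 in 41, as was the dopamine transporter Slc6a3 in 47.

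Downstream of the receptors, 3 of 22 genes for G proteins, adenylyl cyclases and phospholipase C were higher and 3 lower at hour 1, 1 and 3 at hour 5, and 2 and 0 at hour 9. Adcy1, a calcium-stimulated adenylyl cyclase, was higher at all 3 hours (0.30 ± 0.06, 0.36 ± 0.06 and 0.19 ± 0.06, adjusted p = 8.98e-05, 4.98e-06 and 0.0157). Gnas, which encodes the alpha subunit of Gs, was lower during the first hour by log2 -0.20 ± 0.05 on 8 of 8 arrays. Of 24 receptor kinases, arrestins, RGS proteins and receptor partners, 3 were higher and 2 lower at hour 1, 3 and 1 at hour 5, and 2 and 0 at hour 9. The same shares of all probes apply to these lists. Ppp1r1b (DARPP-32), a phosphatase inhibitor regulated by dopamine receptors, was higher at all 3 hours (0.35 ± 0.07, 0.24 ± 0.07 and 0.26 ± 0.07), and so was Arrb1, an arrestin that uncouples receptors (0.09 ± 0.03, 0.08 ± 0.03 and 0.14 ± 0.03). Of the 10 striatum markers, a list that includes Ppp1r1b itself, 2 were higher and 0 lower at each hour, with the same shares of all probes. Their highest first-hour difference, 0.35, was that of Ppp1r1b, so the list is not a separate measure beside it. The part of striatum tissue in the Ppp1r1b difference was not tested.

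The calls were also examined by slide. With slide as a block all 29 calls held, and without any 1 slide all 29 kept their direction. The fifth-hour call of Chrna7 was the only one of the 29 that also passed with each of the 3 slides left out in turn. Of the others 7 passed in 2 of the 3 fits, 19 in 1 and 2 (Adra2b and Chrm4 at hour 9) in none, each fit having fewer animals. Over the 11 other settings that kept every slide and the same probe, 15 of the 19 calls of brighter genes passed in all 11. The other 4 were Chrna7 at hour 1, which passed in 10, Htr3a at hour 5 and Adra2b at hour 9, which passed in 9, and Drd5 at hour 5, which passed in 8.

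Of the 24 arrays, 1 of the fifth hour had the most outlier spots (276, against 80 to 198 on the others) and the lowest share of probes above background in the treated channel (64%). It held the lowest control and the lowest treated animal of that hour for Htr5b (114.0 and 137), the lowest treated ones for Drd1 (331) and Hrh1 (163) and the lowest control one for Chrm1 (2959). Without it, a setting chosen after seeing the data, 26 of the 29 calls passed. The 3 that did not were Htr3a and Drd5 at hour 5 and Adra2b at hour 9. Without the first-hour array of the animal highest for Chrm3, 26 of 29 passed as well, and Chrna7 and Chrnb1 at hour 1 were among those that did not. All 29 kept their direction in both fits. Whether the quality of an array had a part in these values was not tested.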

How the data were processed

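Hippocampal RNA of 48 mice was hybridised to 24 two-colour Agilent arrays (24 arrays, 8 per hour, on 3 slides). The deposited scanner files, per the file headers from Feature Extraction 10.7.3.1, hold unnormalized intensity per spot as median signals and local background. The authors' deposited value table holds log2 ratios of Cy5 over Cy3, used only as an alternative. Its columns had medians of 0.002392 to 0.008888, and their difference from the log ratios computed here had a median size of 0.01005.

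The steps followed the study's methods, except that spots marked as outliers were also left out here. In R 4.3.3 with limma 3.58.1, median signals were background corrected by normexp (offset 50 for p-values, 0 for fold changes and standard errors) and normalized by loess within and by quantile between arrays. A separate channel test fitted 6 groups over 24 arrays (intraspot correlation 0.2793), and p-values were adjusted (Benjamini-Hochberg) over 56605 probes in each of 9 comparisons. Signals are without offset. Saturation and the mark "well above background" come from the scanner software. The fit was tested on simulated data. The number of arrays limits precision.

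Of the probes, 34561 had an accession that gave a symbol (RefSeq names) and 22044 none. Members and gene lists were chosen with earlier results of these data known. 1 receptor gene and 1 enzyme gene, though counted, are not reported here by name. Members named with values were those past an adjusted p of 0.05 and the 3 brightest of each family. Htr1f, Htr2a, Chrnb4, Adra1b and the genes downstream of the receptors were named after their values were seen, as was the choice among the transmitter genes. Promoter windows were read from RefSeq, GRCm38.p6. Permutation p-values used 100000 permutations that did not keep animals within their hour or slide. They were two-sided, and 1e-05 is the smallest they can give. Alternatives covered the background correction, normalization, filters, slides, other probes and tests, and leaving out 2 arrays was added after seeing the data.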

Additional observations from a re-analysis of the deposited data

Results flagged for a closer look

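Single animals stood apart from the other 7 of their group, by a gap large against the group's range (Dixon's 95% limit), in 12 of 144 groups of 8 animals tested over 24 receptor genes. Chance flags about 1 in 20 groups. The group median is given after each value.

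Among control animals, Chrm1 had 1 high animal at 4293 during the first hour (median 3695) and 1 low animal at 2959 during the fifth (median 4029), Htr2c had 1 at 307 (1810) and Htr5b 1 at 114.0 (301), both during the fifth. Among corticosterone-treated animals of the first hour, Adra1d had 1 low animal at 1027 (1807), Chrm2 1 at 102 (143) and Chrnb2 1 at 897 (1185), while Hrh3 had 1 high animal at 7122 (6011). Among treated animals of the fifth hour, Drd1 had 1 low animal at 331 (619), Hrh1 1 at 163 (477) and Htr5b 1 at 137 (359). Drd5 had 1 high treated animal at 1594 during the ninth hour (1383). The fifth-hour values of Htr5b (114.0 and 137), Drd1, Hrh1 and Chrm1 came from 1 array, the one with the most outlier spots (276) and the lowest share of probes above background in the treated channel (64%). The first-hour values of Adra1d, Chrnb2 and Hrh3 came from 1 other array. The part of array quality in them was not tested.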

How the results depend on the processing

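Limma on the log ratios, which pairs the 2 animals of each array, kept 27 of 29 calls and lost 2. It called 10, 9 and 8 receptor genes at hours 1, 5 and 9, against 18.2%, 18.6% and 13.8% of all probes. Across hours no paired analysis was possible because each mouse was killed at a single hour, and the labels do not join brothers there. Over the settings that kept every slide, 280 of 308 tested values for called genes kept their direction and side of the threshold and 25 lost the call, and of 7 means over all probes of a gene, which have no test, 3 moved. The other 3 tested values reversed: the next brightest probe gave 0.0709 for Htr4 at hour 9 and 0.0286 for Adrb3 at hour 1, where it was above background in 1 of 8 control animals, and the scanner software's processed signals gave -0.0304 for Chrnb3 at hour 9, which was above background in no channel, so no direction is read from the last 2. Htr3a at hour 5 gave -0.0482 within slide 2. The cause was not tested.

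The counts of 11, 9 and 9 genes at hours 1, 5 and 9 became 7, 3 and 0 without slide 1, 3, 2 and 3 without slide 3, and 5, 9 and 6 without slide 2, where the shares of all probes called fell too, to between 3.3% and 12.7%. Without 1 array of hour 5 the counts were 11, 8 and 8, against 18.2%, 14.6% and 14.6% of all probes. Without 1 of hour 1 they were 9, 10 and 10, against 18.2%, 19% and 14.9%. Within single slides, with 2 to 4 arrays per hour, the counts were 1, 4 and 1 in slide 1, against 0.56%, 2.76% and 2.87% of all probes. They were 0, 0 and 0 in slide 2, against 2.27%, 0.583% and 0.0283%, and 0, 3 and 0 in slide 3, against 1.22%, 2.7% and 0.0247%. At hour 9 the count was 4 with processed signals, 3 with a mean signal of 50 or more and 4 with 8 or more channels above background, when 14.6%, 13.3% and 12.9% of all probes tested were called. In control mice, hour 9 minus 1, the control channel alone gave 1. Dim probes limit 20 of the 53 genes, and the lack of a dye exchange limits every difference within an hour.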
